A study of Patiria miniata with 6 samples.

Results

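The loci described here are those of the bat star Patiria miniata whose gene names mark them as parts of the mitochondrial respiratory chain, the ATP synthase, the mitochondrial ribosome or the mitochondrial protein import machinery. A locus was taken when every name given for it began with Nduf, Sdh followed by a subunit letter, Uqcr, Cox and a digit, Atp5, Mrpl or Mrps and a digit, Timm or Tomm. This rule used names alone and no measured value. It found 172 loci with 86 names, out of 27630 loci in the authors' deposited table, which is the source of all names, and 80165 loci in the count files. One further locus was left out because it also carried the name of another gene.

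RNA was sequenced from pooled whole embryos at the hatched blastula stage, with 3 libraries a group. The Pm-Tbr MASO embryos had received, as zygotes, 600 µM of a morpholino antisense oligonucleotide (MASO, a synthetic strand that binds an RNA) directed at the T-box transcription factor Pm-Tbr. The control MASO embryos had received a standard control MASO at that concentration. Both groups were kept at 15 °C until they hatched, and only embryos that carried the rhodamine tracer and looked healthy were used. The labels give an age of 36 hours post fertilization for the Pm-Tbr MASO embryos and 30 hours for the control MASO embryos. Age and morpholino therefore cannot be told apart in any value below. The labels do not state separate spawnings for the libraries of a group, so a p-value covers only the spread between these libraries, which may be technical. The targeted transcript itself was not analysed here and gives no check of the labels. Counts assigned to loci ranged from 17795136 to 28167566 per Pm-Tbr MASO library and from 25423004 to 26958581 per control MASO library.

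In animal cells the respiratory chain passes electrons from NADH (complex I) and succinate (complex II) through complex III to oxygen at complex IV, and the ATP synthase uses the proton gradient that complexes I, III and IV build up. Most subunits of these complexes, and all proteins of the mitochondrial ribosome, are made from nuclear genes in the cytosol. They enter through the outer membrane translocase (the Tomm proteins) and the inner membrane translocases with their small chaperones (together the Timm proteins). The mitochondrial ribosome makes the few subunits that mitochondrial DNA encodes. Egg mitochondria and many messenger RNAs for their proteins are inherited from the mother and serve the early embryo.

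The loci as a whole lay slightly lower in Pm-Tbr MASO embryos than in control MASO embryos. The respiratory and ATP synthase subunits were more negative than the mitoribosome, and most Timm loci lay on the other side. The median log2 fold change (Pm-Tbr MASO over control MASO, here and throughout) was -0.21 over the 172 loci, with 115 negative (66.9%). Over all loci of the authors' table it was -0.03, with 51.8% negative. Over the 12495 of these with a gene name, hypothetical and unknown ones left out, it was -0.05, with 53.5% negative. The median was -0.31 for the 92 loci of the respiratory complexes and the ATP synthase, of which 73 were negative. The 48 mitoribosome loci had a median of -0.18, and the 16 import loci a median of 0.23. The import median was 0.023 without Pm-Tbr MASO replicate 1, 0.083 without control MASO replicate 2 and -0.015 with 1 locus per name. For the 13 Timm loci alone the median was 0.46, and 0.23 with 1 locus per name. No test was made of these differences between classes. Whole embryos were sequenced in bulk, so fewer cells of a type and less RNA per cell cannot be told apart.

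None of the 172 loci reached an adjusted p under 0.05 when edgeR's quasi-likelihood test was run without a term for the replicate number, where 2.28% of the 44120 tested loci and 3.21% of those in the authors' table did. The smallest adjusted p was 0.0550, for Pm-Ndufs5, and 8 of the 172 loci, all lower, had an adjusted p under 0.1. That is a smaller share than the 8.73% of the authors' table in either direction. At an unadjusted p of 0.05 the same test separated 6 higher and 32 lower loci (3.49% and 18.6% of the 172), against 11.6% higher and 12.7% lower over the authors' table. Same-numbered libraries of the 2 groups deviated together from their group means, and with the replicate number as a block 15 of the 172 were called lower and 0 higher. That is 8.72% lower, beside 6.18% lower and 6.97% higher over the authors' table. DESeq2 called 12 of the 172 lower, a slightly larger share than the 5.93% over that table, and 0 higher, beside 6.53%. The exact test of edgeR called 6 of the 172 lower, a smaller share than the 4.29% over that table, and 0 higher, beside 5.16%. In the authors' own deposited results, a false discovery rate under 0.05 was given to 4 of the 172 as lower and 0 as higher. Both shares were smaller than those of all loci in their table, 3.77% lower and 5.5% higher. All 4 were among the 15 called with the block. Below, "called" means called with the block unless another test is named.

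CPM values are counts scaled to library size after TMM. Those of the 3 Pm-Tbr MASO libraries lay wholly below those of the 3 control MASO libraries at 45 loci. That is 26.2%, beside 16.7% over the authors' table and 19.0% over its loci with a gene name. The Pm-Tbr MASO values lay wholly above at 10 loci, which is 5.81%, beside 14.1% and 13.6%. Within each pair of same-numbered libraries the median log2 difference over the 172 loci was -0.18, -0.19 and -0.24 for numbers 1, 2 and 3. The loci spanned mean CPM values from 1.497 to 522. The median log2 fold change was -0.23 for the 51 loci under 10 CPM and -0.22 for the 15 over 100 CPM, so loci at both ends of the count range had similar medians. Over the authors' table those medians were 0.02 and -0.17.

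**Figure D1:**
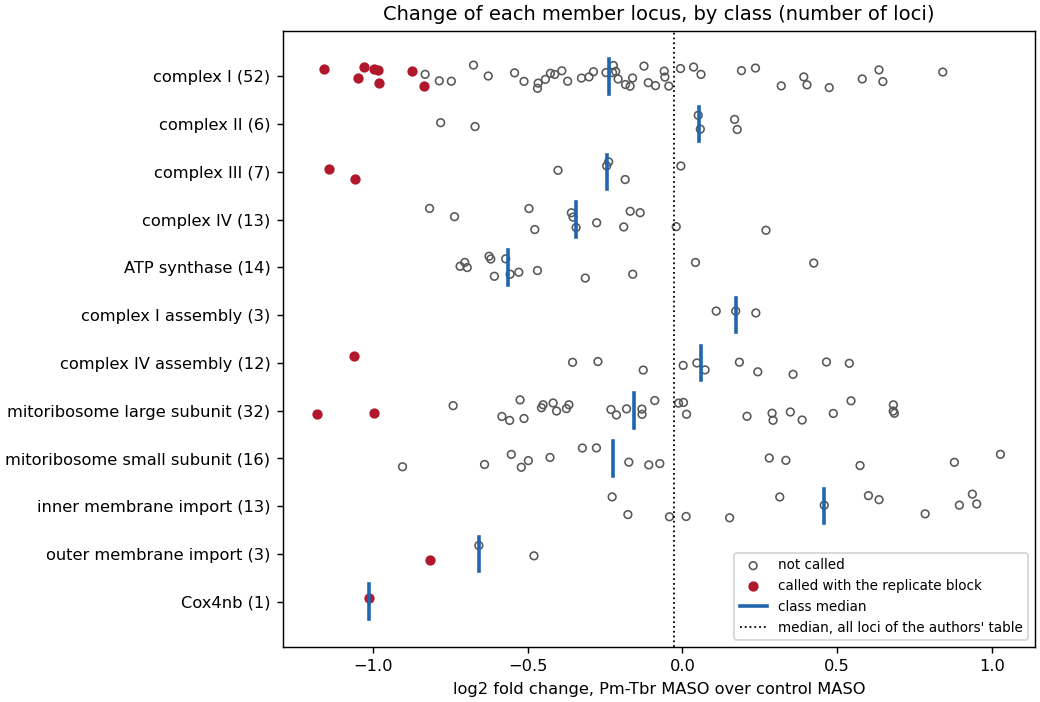
Each point is 1 of the 172 loci, placed by its log2 fold change (Pm-Tbr MASO over control MASO, horizontal axis) in the row of its class, with the number of loci in brackets. Filled points are the 15 loci called with the replicate block, all of them lower. Blue bars are class medians, from -0.66 for outer membrane import and -0.56 for the ATP synthase to 0.46 for inner membrane import (all Timm loci). Cox4nb, at -1.01, is a single locus, and the dotted line is the median of -0.03 over the authors' table.

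Complex I, the NADH dehydrogenase, was represented by 52 loci with a median log2 fold change of -0.24, of which 40 were negative. It held 8 of the 15 called loci, from the genes Ndufa9, Ndufa10, Ndufs3, Ndufs5 and Ndufs7. These were 15.4% of its loci, beside 6.18% called lower over the authors' table. DESeq2 called 5 of its 52 loci, all lower, beside 5.93% lower over that table. Leaving out control MASO replicate 2 gave a median of -0.36, and leaving out Pm-Tbr MASO replicate 1 gave -0.35.

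Pm-Ndufs5, an accessory subunit, had 36.4, 34.3 and 33.5 CPM in Pm-Tbr MASO libraries, against 89.8, 54.5 and 88.4 CPM in control MASO libraries. The groups did not overlap, and the Pm-Tbr MASO libraries lay much closer to each other than the control MASO libraries did. Its log2 fold change was -1.16 ± 0.25 (SE), with an adjusted p of 0.0550 without the block and 0.0245 with it. The locus (XLOC_035442, scaffold 2554, 2355 to 38356, minus strand, in a genome build that the labels and headers do not name) overlaps Pm-Rab23 on the other strand, which had a log2 fold change of 0.00 and an adjusted p of 0.998.

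Pm-Ndufs7, the core subunit that in mammals holds the last iron-sulfur cluster before ubiquinone, was lower at all 3 of its loci. The locus on scaffold 17815 (XLOC_023372, 6236 to 11426) had 38.0, 28.4 and 30.7 CPM in Pm-Tbr MASO libraries, against 56.7, 76.8 and 67.2 CPM in control MASO libraries. Its log2 fold change was -1.05 ± 0.23, with an adjusted p of 0.0562 without the block and 0.0319 with it. This locus overlaps Pm-Rps15, a cytosolic ribosomal protein gene on the other strand, whose log2 fold change of -0.75 was not called. The other two loci, XLOC_036817 and XLOC_036824, lie next to each other on scaffold 2688 and share 1 gene model. XLOC_036817 had 42.2, 17.8 and 17.6 CPM in Pm-Tbr MASO libraries, against 66.2, 42.8 and 44.0 CPM in control MASO libraries. Replicate 1 was the highest library in each group there, and the adjusted p was 0.208 without the block and 0.0271 with it. Its log2 fold change was -0.98 ± 0.39, and -1.54 without Pm-Tbr MASO replicate 1. XLOC_036824 had a log2 fold change of -1.03 ± 0.39 and an adjusted p of 0.189 without the block and 0.0455 with it.

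Pm-Ndufa10, an accessory subunit, had a called locus on each of 2 scaffolds. XLOC_060576 had 14.3, 10.3 and 17.2 CPM in Pm-Tbr MASO libraries, against 25.3, 27.3 and 30.8 CPM in control MASO libraries, with a log2 fold change of -0.996 ± 0.26 and adjusted p-values of 0.0874 without and 0.0319 with the block. XLOC_052302 had 25.8, 16.2 and 33.3 CPM in Pm-Tbr MASO libraries, against 44.2, 34.2 and 55.7 CPM in control MASO libraries (log2 fold change -0.83 ± 0.32, adjusted p 0.194 without and 0.0365 with the block). In both, every Pm-Tbr MASO library lay below every control MASO library. Another locus of that name, at 1.003 to 2.40 CPM in Pm-Tbr MASO libraries and 1.25 to 2.92 CPM in control MASO libraries, had a log2 fold change of -0.11 ± 0.50.

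Pm-Ndufa9, an accessory subunit near the ubiquinone site, was called at XLOC_065872, with 14.2, 16.95 and 22.5 CPM in Pm-Tbr MASO libraries, against 27.8, 30.7 and 39.9 CPM in control MASO libraries. The log2 fold change was -0.87 ± 0.27, and the adjusted p was 0.121 without the block and 0.0334 with it. This locus overlaps 2 unnamed loci on the other strand, and 1 of them was itself lower in the test without the block, at a log2 fold change of -2.06 and an adjusted p of 0.0288. The labels and headers do not say whether the counting used strand, so reads of such overlapping loci cannot be told apart. The other locus of Pm-Ndufa9, XLOC_045698, had a log2 fold change of -0.83 ± 0.34 and missed the threshold with the block (adjusted p 0.0607).

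Pm-Ndufs3, a core subunit, was called at 1 of its 4 loci, XLOC_027075, with 5.19, 5.08 and 7.55 CPM in Pm-Tbr MASO libraries, against 9.93, 10.5 and 14.7 CPM in control MASO libraries (log2 fold change -0.98 ± 0.30, adjusted p 0.123 without and 0.0364 with the block). The other loci of the name ranged from -0.75 to 0.19, and XLOC_066108 held 0 counts in the second library of each group. The name as a whole thus did not move together.

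Among the subunits of the module that takes up NADH, the loci of Pm-Ndufv1 and Pm-Ndufv2 were positive. Both loci of Pm-Ndufs1_2, named for another subunit of that module, were negative at -0.22 and -0.44, with overlapping groups and not called. Pm-Ndufv1, which in mammals binds NADH and the flavin, had 112, 141 and 107 CPM at XLOC_006464 in Pm-Tbr MASO libraries, against 106, 85.3 and 97.8 CPM in control MASO libraries. Those groups did not overlap, but the log2 fold change of 0.32 ± 0.21 was not called (adjusted p 0.443 without and 0.368 with the block). Pm-Ndufv2, its partner in the same module, had log2 fold changes of 0.39 to 0.58 at 3 loci, none called, and the value of 0.58 was 0.28 without Pm-Tbr MASO replicate 2. The largest positive log2 fold change in complex I was 0.84 ± 0.28 at XLOC_057231, 1 of 5 loci of Pm-Ndufs4, an accessory subunit. It had 6.24, 6.85 and 7.66 CPM in Pm-Tbr MASO libraries, against 3.61, 3.49 and 4.49 CPM in control MASO libraries, and was not called (adjusted p 0.153 without and 0.0747 with the block). The other 4 Pm-Ndufs4 loci were negative, from -0.47 to -0.01. Both loci of Pm-Ndufb9, an accessory subunit of the membrane arm, were positive at 0.47 and 0.63, with overlapping groups and Pm-Tbr MASO replicate 2 the highest library at each. Without that library the value of 0.63, at XLOC_020406, was 0.16. Pm-Ndufab1, the acyl carrier protein, had 143, 176 and 231 CPM in Pm-Tbr MASO libraries, against 177, 213 and 252 CPM in control MASO libraries, at a log2 fold change of -0.22 ± 0.25. A second locus of that gene model had under 5 CPM in every library and a log2 fold change of 0.65 ± 0.67.

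Complex II, succinate dehydrogenase, had 6 loci with a median log2 fold change of 0.05, and none was called. Its catalytic flavoprotein Pm-Sdha had 168, 120 and 97.4 CPM in Pm-Tbr MASO libraries, against 127, 104 and 113 CPM in control MASO libraries, with overlapping groups and a log2 fold change of 0.17 ± 0.25. The 3 loci of the iron-sulfur subunit Pm-Sdhb lay between 0.05 and 0.18. The membrane anchor Pm-Sdhd differed from these. XLOC_051732 had 25.2, 24.4 and 21.7 CPM in Pm-Tbr MASO libraries, against 38.9, 48.0 and 35.6 CPM in control MASO libraries, without overlap. Its log2 fold change was -0.78 ± 0.22, which DESeq2 called lower (adjusted p 0.0293) and the block fit did not (adjusted p 0.0504). The adjoining locus XLOC_051731, of the same gene model, had a log2 fold change of -0.67 ± 0.23. The median of the complex moved with single libraries and with shared names: it was -0.10 without Pm-Tbr MASO replicate 1, 0.11 without control MASO replicate 3 and 0.17 with 1 locus per name.

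Complex III, the cytochrome bc1 complex, had 7 loci, all with negative log2 fold changes and a median of -0.24. Both loci of Pm-Uqcrb, a small subunit that in mammals lies at the ubiquinone site, were called lower. XLOC_000102 had 35.3, 14.1 and 29.4 CPM in Pm-Tbr MASO libraries, against 75.1, 37.3 and 61.1 CPM in control MASO libraries. The groups did not overlap, and replicate 2 was the lowest library in each. The log2 fold change was -1.14 ± 0.39, with an adjusted p of 0.158 without the block and 0.0151 with it. XLOC_021568, on another scaffold, had 30.9, 21.9 and 44.7 CPM in Pm-Tbr MASO libraries, against 58.8, 52.6 and 91.6 CPM in control MASO libraries (log2 fold change -1.06 ± 0.33, adjusted p 0.130 without and 0.0184 with the block). The core protein Pm-Uqcrc2, at -0.19 and -0.01, and the Rieske iron-sulfur protein Pm-Uqcrfs1, at -0.40 to -0.24, had overlapping groups and were not called. The median of the complex was -0.67 without Pm-Tbr MASO replicate 3 and -0.08 without control MASO replicate 3.

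Complex IV, cytochrome c oxidase, had 13 subunit loci with a median log2 fold change of -0.34, of which 12 were negative and none was called. They belong to Pm-Cox4i1, Pm-Cox5a, Pm-Cox5b, Pm-Cox6a1 and Pm-Cox6b1, nuclear-encoded subunits that surround the catalytic core. Pm-Cox4i1 had 249, 369 and 395 CPM in Pm-Tbr MASO libraries, against 235, 312 and 480 CPM in control MASO libraries, a log2 fold change of -0.02 ± 0.31. In both groups replicate 1 was lowest and replicate 3 highest. Pm-Cox5b had no overlap between groups at any of its 3 loci, which trace to 2 gene models, XLOC_005238 lying within XLOC_005235. XLOC_010079 had 102, 83.9 and 90.0 CPM in Pm-Tbr MASO libraries, against 128, 120 and 105 CPM in control MASO libraries. The log2 fold changes of Pm-Cox5b were -0.82 to -0.35, with adjusted p-values of 0.161 to 0.282 with the block. Pm-Cox5a was negative at all 4 loci, which also trace to 2 gene models, from -0.74 to -0.17. The median of the complex was -0.16 without Pm-Tbr MASO replicate 2 and -0.19 with 1 locus per name.

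The ATP synthase had a median log2 fold change of -0.56 over 14 loci, 12 of them negative. With all libraries this was the most negative median of the 5 respiratory complexes, but without Pm-Tbr MASO replicate 3 it was -0.66, beside -0.67 for complex III. None passed the test with or without the block. At an unadjusted p of 0.05 without the block 7 were lower (50%, beside 12.7% over the authors' table). They lay at Pm-Atp5a1, Pm-Atp5b, Pm-Atp5c1 and Pm-Atp5g1 among others. At 7 loci the Pm-Tbr MASO libraries lay wholly below the control MASO libraries (50%, beside 16.7% over that table). DESeq2 called 2 of the 14 lower, beside 5.93% over that table. The median stayed between -0.66 and -0.47 when any library was left out.

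Pm-Atp5g1, the proteolipid of the rotating c ring, had 375, 394 and 416 CPM in Pm-Tbr MASO libraries, against 665, 599 and 685 CPM in control MASO libraries. Every Pm-Tbr MASO library lay well below every control MASO library. The log2 fold change of -0.72 ± 0.18 had an adjusted p of 0.0824 without the block, 0.0571 with it and 0.0147 in DESeq2. Pm-Atp5b, the catalytic beta subunit, had 183, 178 and 196 CPM at XLOC_046715 in Pm-Tbr MASO libraries, against 299, 310 and 293 CPM in control MASO libraries. The log2 fold change there was -0.70 ± 0.18, with an adjusted p of 0.0864 without the block, 0.0577 with it and 0.0153 in DESeq2. Its other 2 loci lay at -0.61 and -0.53. The alpha subunit Pm-Atp5a1, which alternates with beta in the catalytic head, had 240, 209 and 259 CPM at XLOC_016322 in Pm-Tbr MASO libraries, against 379, 317 and 345 CPM in control MASO libraries. It lay at -0.56 and -0.57 at its 2 loci, again without overlap and not called.

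The shaft subunits had log2 fold changes close to those of the head. Pm-Atp5c1 (gamma) had 343, 269 and 386 CPM in Pm-Tbr MASO libraries, against 473, 498 and 562 CPM in control MASO libraries, with a log2 fold change of -0.62 ± 0.21 and an adjusted p of 0.0876 with the block. Pm-Atp5d (delta) lay at -0.62 and -0.70. The stalk and membrane subunits were more mixed. Pm-Atp5l was at -0.47, Pm-Atp5h at -0.31 and 0.04, Pm-Atp5f1 at -0.16 and Pm-Atp5j at 0.42, with none called.

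Assembly factors, which help build the complexes without staying in them, had a median log2 fold change of 0.11 over 15 loci. That median was -0.051 without Pm-Tbr MASO replicate 1, -0.033 without control MASO replicate 2 and 0.011 without control MASO replicate 1. The complex I factors Pm-Ndufaf1 and Pm-Ndufaf2 lay between 0.11 and 0.24. Both loci of Pm-Cox15, which acts in heme a synthesis, were positive at 0.54 and 0.47 and not called. Pm-Cox18h, named for the factor that inserts a complex IV subunit into the membrane, had 5 loci that did not move together. XLOC_001703 had 2.92, 4.25 and 1.90 CPM in Pm-Tbr MASO libraries, against 6.79, 7.23 and 5.01 CPM in control MASO libraries, and was called lower (log2 fold change -1.06 ± 0.38, adjusted p 0.169 without and 0.0476 with the block). The other 4 loci lay between 0.00 and 0.36.

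One locus that the naming rule admits, Pm-Cox4nb, carries an old name for a subunit of the endoplasmic reticulum membrane complex in mammals and is not a cytochrome oxidase subunit, so it was kept apart from the classes. It had 38.8, 34.1 and 45.1 CPM in Pm-Tbr MASO libraries, against 59.4, 73.4 and 105 CPM in control MASO libraries. The groups did not overlap, and the log2 fold change of -1.01 ± 0.27 had an adjusted p of 0.0884 without the block and 0.0298 with it.

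**Figure D2:**
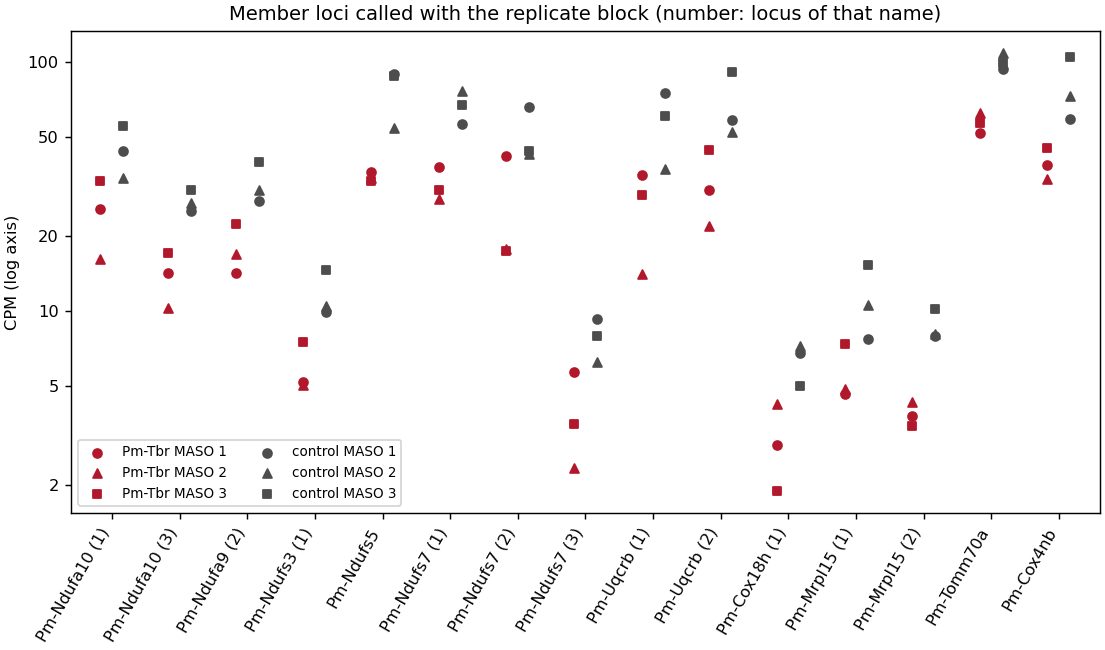
CPM (vertical log axis) of the 15 loci called with the replicate block in each library, with Pm-Tbr MASO in red to the left of control MASO in grey and the replicate number shown by the marker. At all 15 loci the red points lie below the grey points, and the number after a name says which locus of that name is shown.

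The mitochondrial ribosome was mixed. Here and below, loci were placed in its subunits by name alone, Mrpl in the large and Mrps in the small. The place of each protein was not checked, so the subunits are not ranked. The large subunit had 32 loci with a median log2 fold change of -0.16, of which 20 were negative. The small subunit had 16 loci with a median of -0.23, of which 11 were negative. Both called loci (4.17% of the mitoribosome loci, beside 6.18% called lower over the authors' table) belong to Pm-Mrpl15. XLOC_029356 had 3.79, 4.31 and 3.47 CPM in Pm-Tbr MASO libraries, against 7.94, 8.08 and 10.3 CPM in control MASO libraries. The log2 fold change was -1.18 ± 0.28, with an adjusted p of 0.0689 without the block and 0.0348 with it. XLOC_007550, on another scaffold, had 4.67, 4.88 and 7.38 CPM in Pm-Tbr MASO libraries, against 7.75, 10.6 and 15.4 CPM in control MASO libraries (log2 fold change -0.996 ± 0.35, adjusted p 0.165 without and 0.0425 with the block). Neither locus had overlapping groups.

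Other mitoribosome loci with large differences in either direction were not called. Pm-Mrpl45, which in mammals lies at the exit tunnel, had 24.1, 31.1 and 29.2 CPM in Pm-Tbr MASO libraries, against 33.5, 59.7 and 48.0 CPM in control MASO libraries (log2 fold change -0.74 ± 0.27, adjusted p 0.0654 with the block). Pm-Mrps30, counted with the small subunit by its name alone, was the most negative locus there. It had 7.46, 10.03 and 9.001 CPM in Pm-Tbr MASO libraries, against 21.7, 12.9 and 15.1 CPM in control MASO libraries (log2 fold change -0.90 ± 0.28, adjusted p 0.0889 with the block). On the other side, Pm-Mrps23 had 25.6, 32.9 and 28.0 CPM at XLOC_072624 in Pm-Tbr MASO libraries, against 20.1, 18.2 and 19.7 CPM in control MASO libraries. Neither of its 2 loci had overlapping groups, and their log2 fold changes of 0.57 ± 0.22 and 0.88 ± 0.39 had adjusted p-values of 0.128 and 0.227 with the block. The value of 0.88 was 0.34 without Pm-Tbr MASO replicate 2. Both loci of Pm-Mrpl12-like lay at 0.68, with overlapping groups. Pm-Mrps14 had a log2 fold change of 0.28 ± 0.20, and the largest value of the class, 1.03 ± 0.69 for 1 of the 3 loci of Pm-Mrps9, came from a locus under 8 CPM in every library. The large subunit median was -0.10 without control MASO replicate 3, and the small subunit median was -0.12 without control MASO replicate 1.

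The import machinery divided between the Timm and the Tomm loci. The inner membrane class holds all 13 Timm loci, the small chaperones of the intermembrane space included. Its median log2 fold change was 0.46, with 3 negative and none called. The 3 outer membrane loci had a median of -0.66, all negative. The difference between these classes was not tested. Over the 6 settings that left out a library, the inner membrane median ranged from 0.37 to 0.59 and the outer membrane median from -0.75 to -0.59. With the counts of loci that share a name summed, the inner membrane median was 0.25, and with 1 locus per name it was 0.23.

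Pm-Tomm70a, the outer membrane receptor for carrier proteins, had 51.9, 62.6 and 57.1 CPM in Pm-Tbr MASO libraries, against 93.8, 109 and 99.2 CPM in control MASO libraries. The groups lay far apart relative to their spread, and the log2 fold change of -0.81 ± 0.20 had an adjusted p of 0.0714 without the block and 0.0342 with it. The locus (XLOC_074410, scaffold 8580, 19755 to 33565) overlaps Pm-Hypp_1937 on the other strand, which had a log2 fold change of -0.71 and an adjusted p of 0.0593 with the block. Pm-Tomm40, the channel of the outer membrane, had 45.1, 55.8 and 61.0 CPM at XLOC_046595 in Pm-Tbr MASO libraries, against 72.5, 76.3 and 77.1 CPM in control MASO libraries, without overlap. Its 2 loci, of 1 gene model, had log2 fold changes of -0.48 ± 0.21 and -0.66 ± 0.23 and were not called.

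Pm-Timm50, the inner membrane receptor that takes up precursors leaving the outer membrane, lay higher in Pm-Tbr MASO libraries at all 3 of its loci without overlap, though none was called. XLOC_059921 had 23.7, 28.6 and 32.7 CPM in Pm-Tbr MASO libraries, against 15.8, 18.7 and 20.2 CPM in control MASO libraries. The 3 log2 fold changes were 0.63 ± 0.23, 0.60 ± 0.23 and 0.89 ± 0.30, with adjusted p-values of 0.0844, 0.117 and 0.0710 with the block. The last of these values came from XLOC_060772, a locus with no strand given. It adjoins XLOC_060759, the locus at 0.60, and shares 1 gene model with it. Pm-Timm44_1, which ties the import motor to the channel, had 24.8, 20.5 and 17.9 CPM at XLOC_013437 in Pm-Tbr MASO libraries, against 18.03, 5.88 and 8.78 CPM in control MASO libraries. Control MASO replicate 1 stood above the other two control MASO libraries there and at the second locus, XLOC_020839, and the groups overlapped at both. The log2 fold changes were 0.95 ± 0.41 and 0.78 ± 0.48, with adjusted p-values of 0.0572 and 0.0716 with the block, and were 1.52 and 1.56 without that control library. The second was 0.43 without control MASO replicate 2. The channel subunit Pm-Timm17B lay at 0.31 and -0.04. The small chaperones of the intermembrane space had log2 fold changes of 0.46 for Pm-Timm13, 0.15 and 0.01 for Pm-Timm9, and -0.23, -0.18 and 0.94 for Pm-Timm10, the last from a locus under 5 CPM in every library.

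Summed over loci, the members took 6305, 6060 and 6793 CPM in Pm-Tbr MASO libraries, against 7738, 7370 and 8757 CPM in control MASO libraries. The groups did not overlap. A sum is set mostly by the loci with high counts. The ATP synthase sum was 2031 ± 179 CPM in Pm-Tbr MASO libraries and 2940 ± 150 CPM in control MASO libraries (SD, n = 3 each), which was 31.8% ± 0.93 and 37.0% ± 1.5 of the members' sum. The complex I sum was 1436 ± 61.2 CPM in Pm-Tbr MASO libraries and 1776 ± 170 CPM in control MASO libraries, again without overlap, at similar shares of 22.5% and 22.3%. The outer membrane sum of 121 ± 13.3 CPM in Pm-Tbr MASO libraries and 192 ± 9.11 CPM in control MASO libraries did not overlap either. The sums of complexes II, III and IV and of the small ribosomal subunit did overlap, as did that of the inner membrane loci, at 326 ± 38.1 CPM in Pm-Tbr MASO libraries and 265 ± 50.9 CPM in control MASO libraries. The large ribosomal subunit sum was 422 ± 26.7 CPM in Pm-Tbr MASO libraries and 462 ± 11.0 CPM in control MASO libraries. Assembly factors were the class whose sum lay wholly higher, at 126 ± 8.94 CPM in Pm-Tbr MASO libraries and 116 ± 3.06 CPM in control MASO libraries. Those groups nearly touched, with a lowest Pm-Tbr MASO sum of 119.4 CPM and a highest control MASO sum of 119.0 CPM. The complex IV factors among them, at 105 ± 3.05 CPM in Pm-Tbr MASO libraries and 97.1 ± 2.56 CPM in control MASO libraries, did not overlap either. No test was made on sums.

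**Figure D3:**
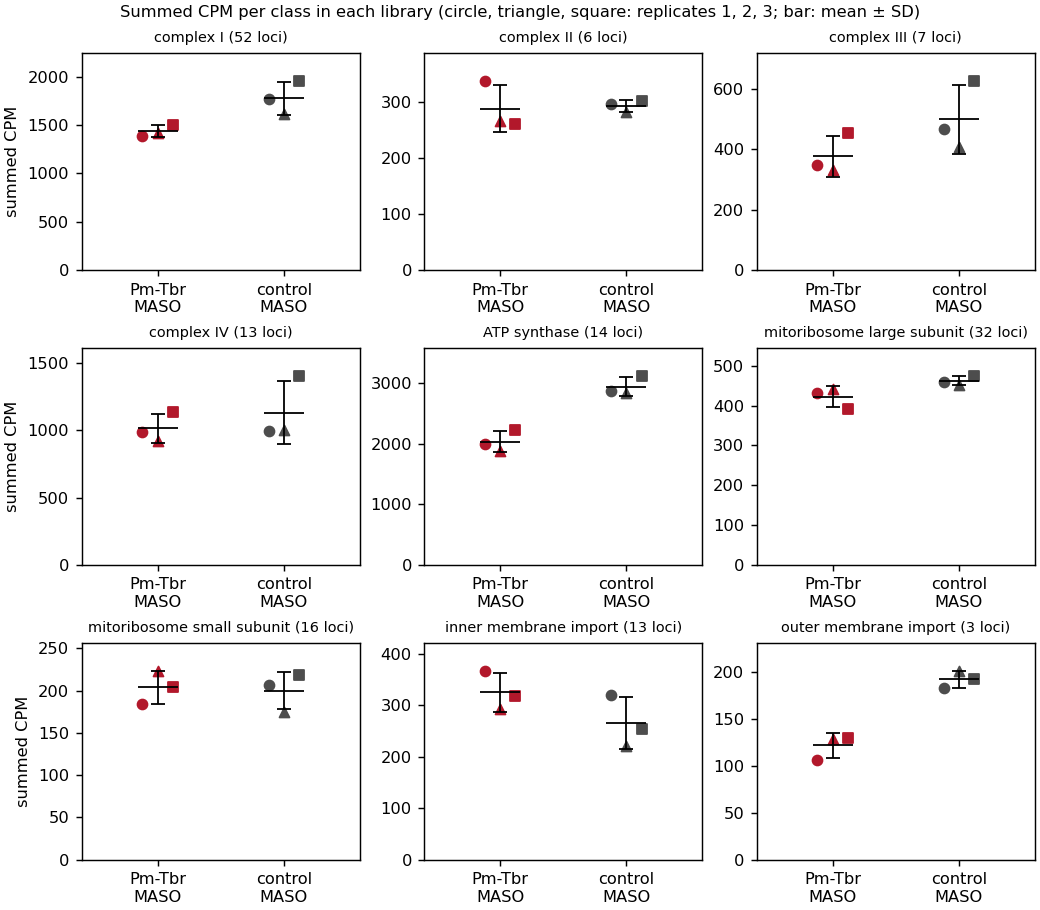
Summed CPM of 9 classes (vertical axis, from 0) in each library, with Pm-Tbr MASO in red to the left of control MASO in grey; markers show the replicate number and bars the mean ± SD over 3 libraries. Of the 9 classes drawn (assembly factors are not), complex I, the ATP synthase, the large ribosomal subunit and the outer membrane loci have groups that stand apart, all lower in Pm-Tbr MASO, and the others overlap.

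The replicate numbers left a common mark on these loci. Deviations from the group mean correlated over the 172 loci at 0.60, 0.44 and 0.66 for libraries with the same number in both groups, and at -0.41 to -0.20 for libraries with unlike numbers. The loci share libraries and depth, so these values are a description. Deviations cancel out within a group, so the values for unlike numbers add no separate evidence. The respiratory subunits moved most evenly: their median deviation was -0.13 on the log2 scale in replicate 2 of Pm-Tbr MASO and likewise -0.13 in replicate 2 of control MASO, and 0.09 and 0.11 in replicate 3 of Pm-Tbr MASO and of control MASO.

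Many names were carried by more than 1 locus, so the loci are not 172 independent genes. Of the 86 names, 28 had a single locus and 58 had several, and the loci trace to 149 gene models. Log2 fold changes of loci that share a name differed by a median of 0.18 over 122 pairs, against 0.47 over 2175 pairs of loci in the same class with different names. All loci of a name had the same sign for 46 of the 58 names. The 12 exceptions included Pm-Cox18h, Pm-Mrps9, Pm-Ndufs3, Pm-Ndufs4 and Pm-Timm10, for which the widest ranges came in part from loci of few counts or with no strand given. Reads aligned to several places stayed out of the counts of all loci, so loci with near-identical copies may be undercounted, which makes single loci of a shared name uncertain. The 15 called loci carried 10 names, and 6 of the 15 overlap another locus of the authors' table.

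**Figure D4:**
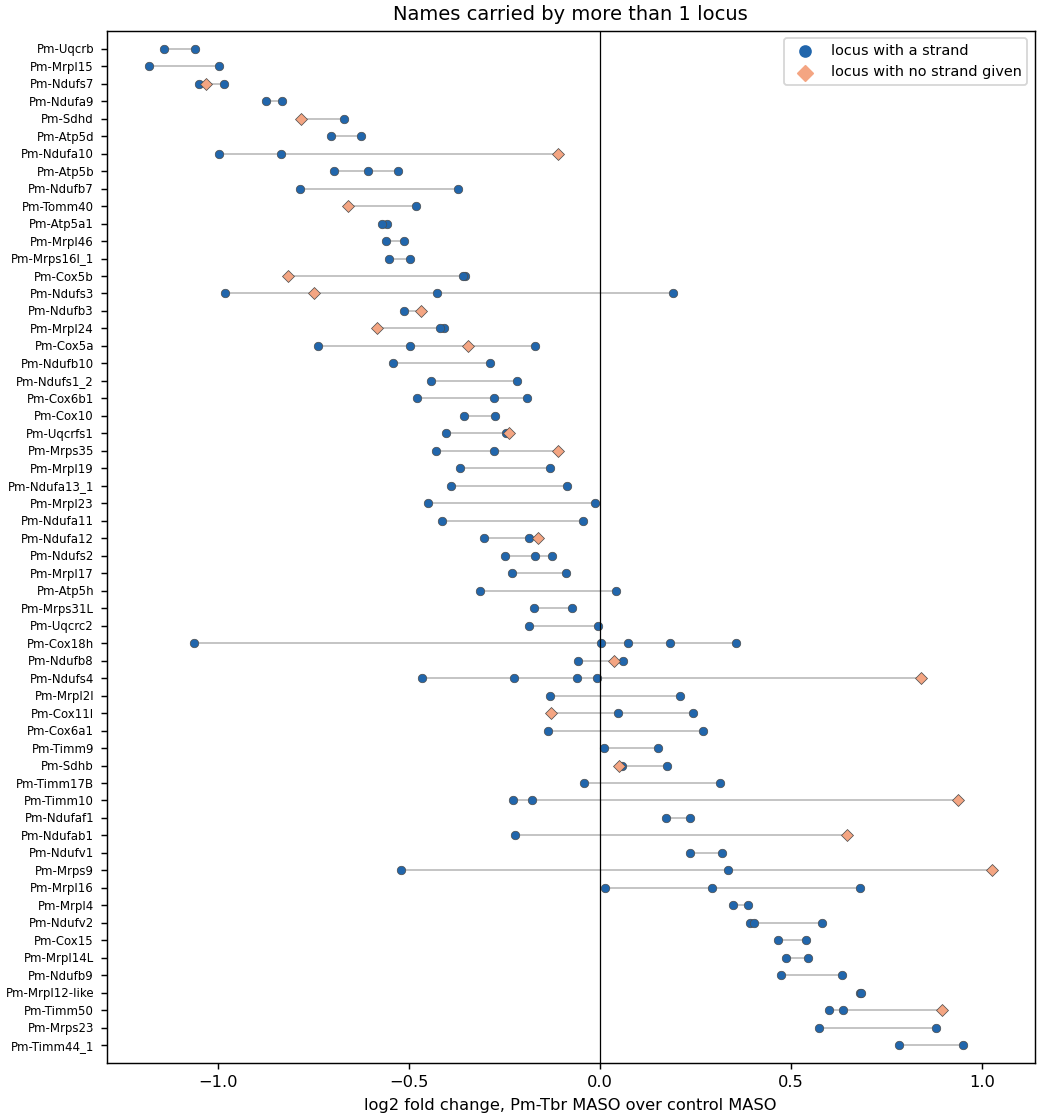
Each row is 1 of the 58 names carried by several loci and each marker is 1 locus, placed by its log2 fold change (Pm-Tbr MASO over control MASO, horizontal axis); diamonds mark loci with no strand given. Pm-Uqcrb, Pm-Mrpl15 and Pm-Ndufs7 lie near -1 at every locus and Pm-Timm44_1, Pm-Mrps23 and Pm-Timm50 above 0.5 at every locus, while Pm-Cox18h, Pm-Ndufs4 and Pm-Mrps9 spread over both sides of 0.

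Other genes that serve the mitochondrion had medians on both sides of 0. For the counts that follow, the shares over the authors' table were 6.97% higher and 6.18% lower with the block, and 1.8% higher and 1.41% lower without it. The 26 loci of mitochondrial translation factors and tRNA synthetases had a median log2 fold change of 0.50, with 7 called higher (26.9%) and 0 lower. Without the block 1 was called, and the 4 loci with the smallest p all carried the single name Pm-Wars2. Pm-Wars2, the mitochondrial tryptophanyl-tRNA synthetase, was the name called without the block, at 34.2 ± 6.73 CPM in Pm-Tbr MASO libraries and 9.10 ± 4.21 CPM in control MASO libraries (log2 fold change 1.91 ± 0.36, adjusted p 0.0389). The 55 loci of inner membrane carriers (Slc25) had a median of 0.18, with 3 called higher and 2 lower. All 3 called higher carried the single name Pm-Slc25a14, and 1 of them, at 1.27 ± 0.24, also passed without the block (adjusted p 0.0411). A further locus of that name was called lower, at -0.91 ± 0.28. The 32 loci of the citric acid cycle had a median of -0.17 with 1 called higher, Pm-Dld, and 3 called lower, at Pm-Suclg1 and Pm-Sucla2, subunits of succinyl-CoA ligase.

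In the smaller lists no locus was called without the block, and where a list had a single call in a direction its share was near that over the authors' table. The 11 loci of mitochondrial DNA maintenance and transcription had a median log2 fold change of -0.24 with 1 called higher (9.09%), the single-stranded DNA binding protein Pm-Ssbp1. The 19 loci of mitochondrial chaperones and proteases had a median of 0.03, with the protease Pm-Lonp1 called higher and the prohibitin Pm-Phb1 called lower (5.26% each). The 17 loci of cytochrome c and further assembly factors had a median of -0.07, with Pm-Surf1, a complex IV assembly factor, called lower at 5.99 ± 1.58 CPM in Pm-Tbr MASO libraries and 13.9 ± 0.435 CPM in control MASO libraries. The 3 loci of fusion and fission genes had a median of 0.39 and none was called. Glycolysis, the cytosolic route to ATP, had a median of -0.35 over 16 loci, with 1 called higher and 3 called lower (18.8%). Pm-Hk, a hexokinase, was called higher, and Pm-Gapd, Pm-Eno1 and a locus named for another hexokinase, Pm-Hk1_1, were called lower. The Pm-Tbr MASO libraries differed widely at Pm-Hk, with 135 ± 150 CPM, against 12.9 ± 9.64 CPM in control MASO libraries.

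Of the regulators of nuclear-encoded mitochondrial genes that were looked up, the name with loci was Pm-P3a2, whose sea urchin counterpart is a relative of vertebrate NRF1, a factor known for respiratory chain genes in mammals. Both its loci fell in Pm-Tbr MASO embryos also without the block. The first had 18.7 ± 0.546 CPM in Pm-Tbr MASO libraries and 58.1 ± 21.8 CPM in control MASO libraries, a log2 fold change of -1.63 ± 0.31 (adjusted p 0.0416). The second had 4.47 ± 0.658 CPM in Pm-Tbr MASO libraries and 15.3 ± 5.54 CPM in control MASO libraries, a log2 fold change of -1.78 ± 0.35 (adjusted p 0.0444). Whether this bears on the respiratory loci was not tested.

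Values of other gene groups in the same libraries are given next, and their part in the values above was not tested. Cytosolic ribosomal proteins had a median log2 fold change of -0.57 over 93 loci with 89 negative, of which 11 were called lower (11.8%, beside 6.18% over the authors' table) and 0 higher. Without the block 0 of the 93 were called, with a smallest adjusted p of 0.0502, while 45 were lower and 0 higher at an unadjusted p of 0.05. Their summed CPM ranged from 5796 to 8382 in Pm-Tbr MASO libraries and from 10260 to 12246 in control MASO libraries. Cilia genes had a median of -0.57 over 69 loci, of which 51 were negative and 18 positive. With the block 8 were called lower (11.6%) and 0 higher, and without it 3 lower and 0 higher. At an unadjusted p of 0.05 without the block, 26 were lower and 9 higher. Within same-numbered pairs of libraries the cilia median was -0.77, -0.67 and -0.04 for numbers 1, 2 and 3. The cilia sums were 3956 to 4667 CPM in Pm-Tbr MASO libraries and 5396 to 6802 CPM in control MASO libraries. Egg and maternal genes had a median of 1.48 over 15 loci, with 9 called higher and 1 lower with the block, 5 higher and 0 lower without it, and sums of 9149 to 14361 CPM in Pm-Tbr MASO libraries and 3432 to 5635 CPM in control MASO libraries.

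Every listed marker locus of the embryo's regions had a negative log2 fold change, and not all were called. These lists were chosen with earlier results of these data known, so their common direction and calls are a description only. The endoderm list had 6 of 8 loci called lower with the block and 4 without it, with sums of 602 to 817 CPM in Pm-Tbr MASO libraries and 1279 to 1466 CPM in control MASO libraries. The ectoderm list had 8 of 8 called lower with the block and 5 without it, with sums of 46.1 to 131 CPM in Pm-Tbr MASO libraries and 557 to 756 CPM in control MASO libraries. The mesoderm list had 2 of 3 called lower with the block and 1 without it, with sums of 151 to 189 CPM in Pm-Tbr MASO libraries and 360 to 484 CPM in control MASO libraries. Every listed locus of the mesoderm and egg groups, and 7 of 8 in each of the endoderm and ectoderm groups, had over 2 CPM in all 6 libraries. Foxq2, Six3, Ets1, Hex and Nanos were searched in that spelling alone and were not analysed here.

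The authors' deposited table gives a log2 fold change of -1.13 for Pm-Ndufs5 (false discovery rate 0.0316), -1.02 for Pm-Ndufs7 at XLOC_023372 (0.0322), -0.97 for Pm-Ndufa10 at XLOC_060576 (0.0474) and -0.95 for Pm-Cox4nb (0.0365). In that table too, a negative value means lower in Pm-Tbr MASO embryos.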

How the data were processed

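Each of the 6 libraries came as a file of read counts, deposited as whole numbers for 80165 loci and 5 summary lines. The authors also deposited their comparison of the groups for 27630 loci, those with over 2 CPM in at least 3 libraries. As deposited by the authors, it holds log2 fold changes and mean log2 CPM, a test score (F), p-values and the false discovery rate, without a record of the steps that made them. The submitters' processing notes name edgeR 3.10.5, HTSeq 0.6.1p1, Cufflinks 2.2.1, SAMtools, TopHat2 2.0.12 and CASAVA 1.8. No genome build or strand setting for the counting was found in the labels or headers. Names and positions come from the deposited table. The summary lines (49.0% to 50.6% of a library, mostly reads aligned to several places) were left out, so reads of near-identical copies may be missing from a locus.

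The main test on counts was edgeR 4.0.16's quasi-likelihood F test (R 4.3.3, limma 3.58.1) after TMM scaling and filterByExpr, which kept 44120 loci and all 172 members, with group as the only term. P-values were adjusted by Benjamini-Hochberg over all 44120 loci, with a threshold of 0.05. An SE is the size of the log2 fold change divided by the square root of F. Differences within pairs of libraries and deviations from group means used log2(CPM + 0.5). The fits were tested on simulated data. The labels give each group replicate numbers 1 to 3. Deviations from the group means correlated at 0.52, 0.22 and 0.55 over 44120 loci for same numbers and at -0.46 to -0.05 for unlike ones. The values for unlike numbers are not separate evidence, since deviations cancel out within a group. The numbers were taken as pairs on the evidence of the counts, no shared batch being stated.

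Loci were named by a rule: in each class the 3 smallest p, the highest mean CPM, every call with or without the block, every log2 fold change above 0.58 or below -1, and further loci of those names. From the other lists at most 4 called loci each could be named. Some further ATP synthase, complex I and import loci were chosen after their values were seen. Members and lists were chosen with earlier results of these data known. Alternatives were the block, the exact test of edgeR, DESeq2 1.42.0, another scaling, filter or threshold, 1 locus or summed counts per name, and each library left out. No per-length values were made, so levels are not compared between genes.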

Additional observations from a re-analysis of the deposited data

How the results depend on the processing

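Over all tested loci 1008 were called, against 4455 with the replicate block, 4130 by DESeq2 and 3374 by the edgeR exact test, and 0 to 479 with a library left out (0 without control MASO replicate 2, 14 without Pm-Tbr MASO replicate 1). Of the 172 members 0 were called, against 15 with the replicate block, 12 by DESeq2, 6 by the exact test, 1 without a low-count filter, 2 with a filter of over 2 CPM in at least 3 libraries and 8 at a threshold of 0.1. Every member called under these settings was lower, 9 loci were called both with the block and by DESeq2, and no member was called with a library left out. RLE or library-size scaling called 0 members. The members' median log2 fold change ranged from -0.28 to -0.16 with a library left out, and that of the respiratory subunits from -0.38 to -0.28. The mitoribosome median ranged from -0.26 to -0.15, that of assembly factors from -0.051 to 0.18, and that of import from 0.023 to 0.34. With 1 locus per name the import median was -0.015, and with counts summed per name 0.041. For the 57 named loci, 705 of 741 alternative values stayed on the same side of the threshold and 36 passed it; 15 values in 8 uncalled loci changed sign. Causes were not tested. The median SE of the log2 fold change was 0.37 for the 51 members under 10 CPM and 0.21 for the 15 over 100 CPM, and the part of counting depth in this was not tested.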
